A study of Homo sapiens with 9 samples.

Results

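The cytosolic ribosomal proteins are the protein components of the ribosome of the cytoplasm. The genes were taken by symbol: RPL or RPS followed by a number, with the core endings A and X and the L, L1 or AL endings of close relatives, together with the stalk proteins and RPSA, without pseudogenes, ribosomal S6 kinases, RPS27L and RPS4Y1. By this rule 73 genes had a probe common to both array versions under their name, and 71 of these passed the filter on low signal, out of 12193 genes and unnamed probes that passed it in all. The brightest probe stood for each gene. The 71 genes comprised 24 proteins of the small (40S) subunit, 40 of the large (60S) subunit, the stalk proteins RPLP1 and RPLP2, and 5 paralogs.

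The common probes of RPL10 and RPL3L did not pass and were detected on 0 of 9 arrays. RPL10 is a 60S protein that completes the site where peptide bonds are formed, and RPL3L is the muscle paralog of RPL3. An undetected probe does not show that an mRNA was absent, and whether the RPL10 probe reads its transcript was not tested.

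Illumina BeadChips were used to measure mRNA levels in AGS, a human gastric adenocarcinoma cell line, grown in normoxia. HIF- cells carried a stable lentiviral shRNA against HIF-1α, the oxygen-regulated subunit of the hypoxia-inducible factor, and SCR cells carried an unspecific scrambled shRNA. Each group had 3 replicates: replicates 1 and 2 had 1 HumanRef-8 array per group, and replicate 3 had 2 SCR and 3 HIF- technical arrays of the HumanHT-12 version. Both groups of a replicate lay on the same chip, all cells were grown in DMEM with serum, the HIF- cells rest on the hairpin alone with no rescue on these arrays, and nothing in the sources says whether the replicates were separate cultures, so that the p-values measure only the spread between these samples.

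HIF1A itself fell by 2.31 on the log2 scale in HIF- cells (limma adjusted p = 0.0044), with -2.67, -2.24 and -2.01 in replicates 1 to 3. Of 8 epithelial marker genes, 7 were detected on all 9 arrays, whereas 5 of 6 fibroblast markers and 3 of 5 leukocyte markers were detected on none. The exceptions were CLDN4, detected on 7 arrays, COL1A1 on 8, CD14 on 1 and LYZ, also a product of gastric epithelium, on 9. The deposited median log2 signal was 5.59 for SCR 1 and 5.34 for HIF- 1, 4.55 and 4.56 for SCR 2 and HIF- 2, and between 4.89 and 5.04 for the arrays of replicate 3.

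Ribosomal proteins fold onto ribosomal RNA in the nucleolus and cytoplasm and give 1 copy each to most ribosomes, so that cells make them in matched amounts. Their mRNAs are among the most abundant of a growing cell and begin with a pyrimidine-rich stretch, the 5′ terminal oligopyrimidine (TOP) motif, through which mTOR and LARP1 tune their translation. MYC is known to drive their transcription, and a surplus of free RPL5 and RPL11 binds MDM2 and stabilizes p53. The arrays measured mRNA only, and fewer cells of a kind and less mRNA per cell cannot be told apart in such samples.

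The start windows of the genes with the most extreme means show this feature, which not every gene near the ends of the list had. Each runs from 20 bases before to 10 bases from the annotated start in RefSeq (GRCh38.p14), 5′ to 3′ on the gene's own strand, and the capitals mark the part inside the window of the longest C/T run that touches the 5 bases to either side of the start. RPS23, RPL22 and RPL41 had the lowest mean differences between HIF- and SCR cells, and RPL34, RPL14 and RPS21 the highest.
RPS23 (chr5:82278345-82278374, minus strand): ctccttcctgcggtgCTTCTCTCTTTCgct
RPL22 (chr1:6199586-6199615, minus strand): ctgcgtagttcgctcaCCTCCCTTTCTaac
RPL41 (chr12:56116613-56116642, plus strand): gtagacggaacttcgCCTTTCTCTCggcct
RPL34 (chr4:108620556-108620585, plus strand, the first of 2 listed starts): ctggcaaaggCTTTTTTCTTCCTCTTCCgg
RPL14 (chr3:40457319-40457348, plus strand): gggttgggcgggTCTTCTTCCTTCTCgcct
RPS21 (chr20:62387083-62387112, plus strand): tgccgggtgactagctgCTTCCTTTCTCTC

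The run was 12 bases for RPS23, 11 for RPL22 and 10 for RPL41, and 18, 14 and 15 for RPL34, RPL14 and RPS21. Among the next highest means it was 7 for RPL36, 9 for RPS28 and 4 for RPL13. Among the next lowest it was 11 for RPS12 and 5 for RPL32. Whether run length goes with the difference was not tested. RefSeq promoters matched 60 of the 71 genes by symbol, and for genes with several starts the first listed was taken. A C/T run of at least 8 bases lay at the start in 43 of 60 (71.7%), against 11% of 27305 promoters of the same length, and the median run was 11 bases against 3. The motif CCGGAAG, a core recognized by GABPA and other ETS factors, stood on either strand within 250 bases before to 50 after the start in 20 of 60 (33.3%) against 10.7% of all promoters. ACGTG, the core letters of the site that HIF-1 recognizes, was found on either strand in 20 of 60 (33.3%) against 21.6%, and TATAAA in 5 of 60 (8.33%) against 12%. None of these motifs contains another, and a match describes the sequence only. The genes without a match were RPL23, RPL23A, RPL30, RPL37, RPL39L, RPL5, RPL7, RPL8, RPS15A, RPS2 and RPS20.

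The first question was whether loss of HIF-1α changed the mRNAs of the ribosomal proteins. None of the 71 genes was called by limma at an adjusted p below 0.05: 0 were higher in HIF- cells, against 0.0738% of all features, and 0 were lower, against 0.041%. At an unadjusted p below 0.05, 1 gene (RPL34) was higher, against 3.4% of all features, and 1 (RPS23) was lower, against 4.13%. The first count moved between 0 and 6 under the alternatives: it was 0 without replicate 1 and 6 without replicate 3, where 3.61% of all features were higher at that threshold, and the second was 1 in each of these. The difference was above 0 in all 3 replicates for 16 genes (22.5%), against 14.5% of all features, and below 0 in all 3 for 5 genes (7.04%), against 17.4%. No gene had all 3 HIF- values above or all 3 below the SCR values, against 1.12% and 1.3% of all features, a comparison in which the step between array versions counts as spread. By a rebuilt form of the rank rule in the study's methods, which asks for a z-value in the top 10% in each replicate with 1 sign, 0 of the 71 genes were higher and 0 lower, against 0.443% and 0.459% of all features.

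The mean differences over the 3 replicates were small for most genes. The mean difference lay within 0.25 on the log2 scale for 58 of the 71 genes (81.7%), against 80.3% of all features, and reached 1 for 0 genes. The 95% interval of a gene's mean difference extended 0.32 to either side in the median, between 0.28 and 0.66. A change of about this size or smaller in a single gene was therefore not resolved with 3 replicates.

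The median difference over the 71 genes was 0.09, against -0.01 over all features, and 53 of 71 genes lay above 0 (74.6%, against 48.3%). The 3 replicates did not share it. Replicate 1 alone had a median of 0.30, whereas replicates 2 and 3 had 0.02 and -0.01, and leaving out replicate 1 gave 0.01 for the median of the means.

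**Figure D1:**
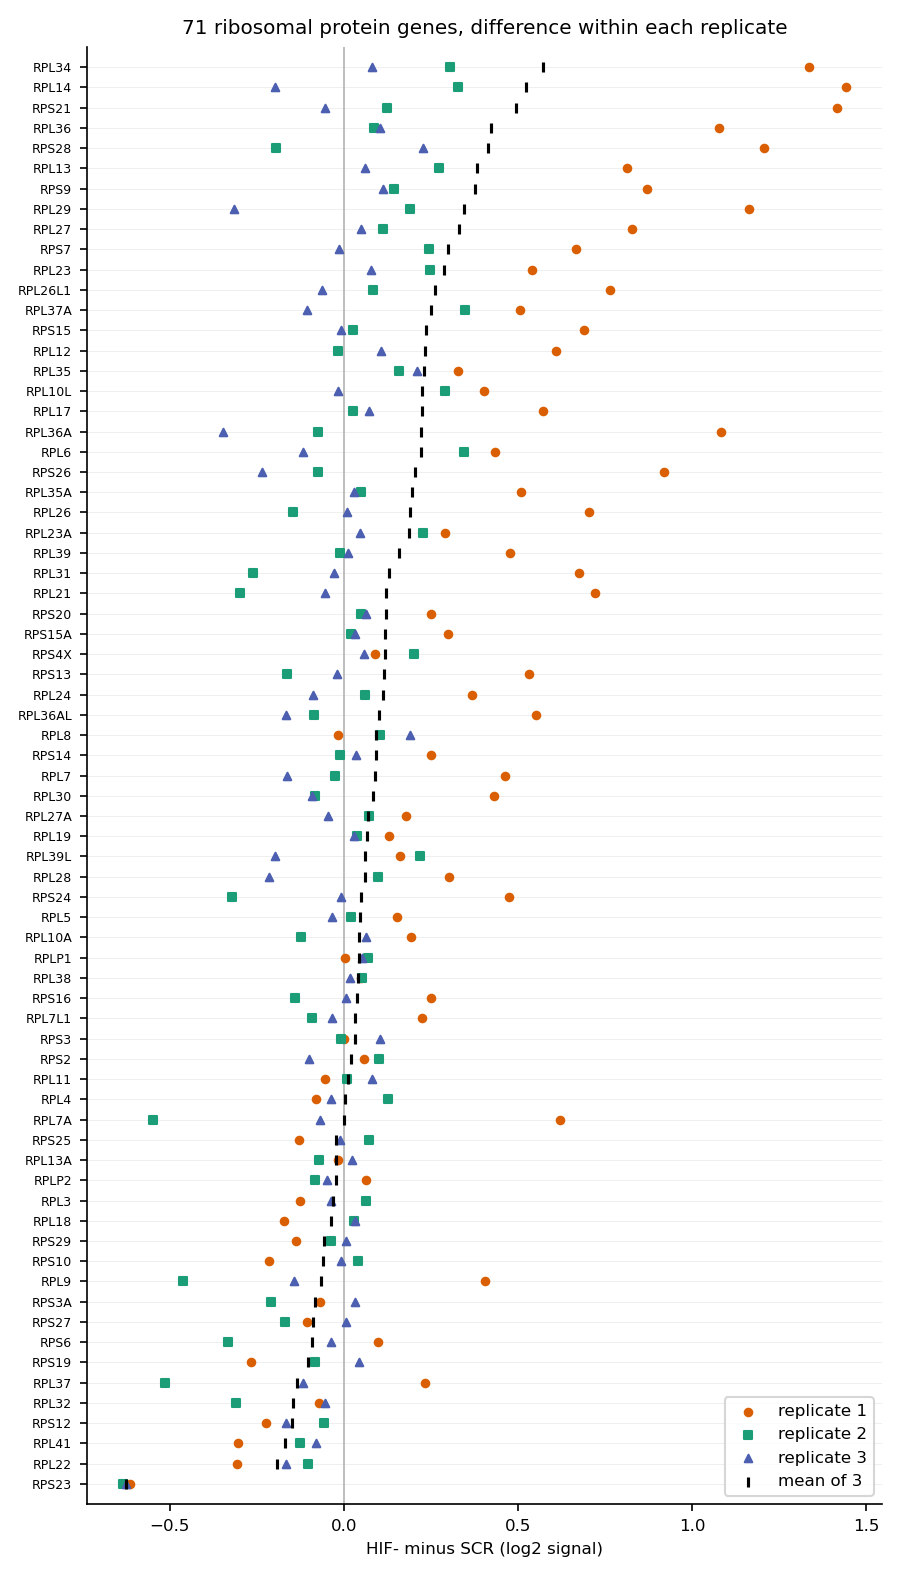
Difference between HIF- and SCR cells (horizontal axis, log2 signal) for each of the 71 ribosomal protein genes (rows, ordered by mean), with 1 symbol per replicate and a bar for the mean of 3. Most replicate 1 symbols lie to the right of 0 and reach 1.44, those of replicates 2 and 3 lie around 0, and for RPS23 all 3 fall together at about -0.62.

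In replicate 1, 53 of 71 genes were above 0 (74.6%), against 47.1% of all features, and 25 genes (35.2%) were at least 0.5 higher in HIF- 1 than in SCR 1, against 9.23%. In replicate 2, 38 were above 0 (53.5%, against 48.7%), and in replicate 3, 32 were above 0 (45.1%, against 48.7%). No gene reached a difference of 0.5 in replicate 2, where 6.22% of all features did, or in replicate 3, where 2.94% did. A difference of -0.5 or less was found in 1 gene in replicate 1 (against 7.55%), 3 in replicate 2 (against 6.14%) and 1 in replicate 3 (against 1.52%), and RPS23 was among them each time.

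Among the 40S proteins, which bind the mRNA and hold the decoding site, RPS23 stood apart. RPS23 is a conserved 40S protein next to the decoding centre. Its normalized log2 signal was 9.55 in SCR 1 and 8.93 in HIF- 1, 9.63 in SCR 2 and 9.0 in HIF- 2, and 8.75 and 8.69 on the SCR arrays against 8.19, 8.02 and 8.07 on the HIF- arrays of replicate 3. The HIF- arrays were below the SCR arrays of the same version without overlap, while the SCR arrays of replicate 3 lay below HIF- 1 and HIF- 2, which were read on the other version. The differences of -0.61, -0.63 and -0.62 in replicates 1 to 3 were the lowest mean of the 71 genes and also the narrowest range, with -0.50 to -0.73 over the 6 pairs of technical arrays.

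The mean of RPS23 was -0.62 with an SE of 0.12, a 1.54-fold lower signal in HIF- cells with a 95% interval of -0.90 to -0.35. Its unadjusted p was 0.00102 and its limma adjusted p over all features was 0.153, so that it did not pass. It had rank 70 from the most negative difference and rank 81 by p among 12193 features. Under the alternatives its difference stayed between -0.67 and -0.57, and its limma adjusted p ran from 0.0725 to 1.0. The last came from the fit without the replicate block, which kept a term for the array version alone. RPS23 had 1 common probe, so that no second probe bears on this value. That probe was dim for the family, with a mean log2 signal of 8.99. It was among 10 genes between 8 and 10, while 24 genes lay between 12 and 13 and 16 over 13. Dim and bright probes of the same gene differed elsewhere in the family, and whether a brighter RPS23 probe would give this value was not tested.

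RPS12, a 40S protein at the beak of the subunit's head, was the other 40S gene below 0 in all 3 replicates, with -0.22, -0.06 and -0.17. Its mean was -0.15 with a limma adjusted p of 0.731. Its signal lay between 12.92 and 13.47 on the 9 arrays.

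RPS21 and RPS28 had the highest means of the 40S group. RPS21, a small protein of the 40S body, read 10.37 in SCR 1 and 11.79 in HIF- 1, 12.35 in SCR 2 and 12.47 in HIF- 2, and 11.38 and 11.06 on the SCR against 11.54, 11.13 and 10.84 on the HIF- arrays of replicate 3. SCR 1 was the lowest of the 9 arrays, and in replicate 3 the groups overlapped. The differences were 1.41, 0.12 and -0.05, with a mean of 0.50 (SE 0.27, limma adjusted p = 0.70). RPS28, which lies near the mRNA exit channel, differed by 1.21, -0.20 and 0.23, again with SCR 1 (10.01) as the lowest array.

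RPS9, needed early in 40S assembly, was above 0 in each replicate with 0.87, 0.14 and 0.11 and a mean of 0.38 (limma adjusted p = 0.671). RPS6, the 40S protein phosphorylated by S6 kinases downstream of mTOR, had differences of 0.10, -0.33 and -0.04. RPS3, at the mRNA entry channel, had differences of 0.00, -0.01 and 0.10. Neither departed from 0 by more than its interval.

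The plot of single arrays shows the contrast between RPS23 and the genes with the highest means.

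**Figure D2:**
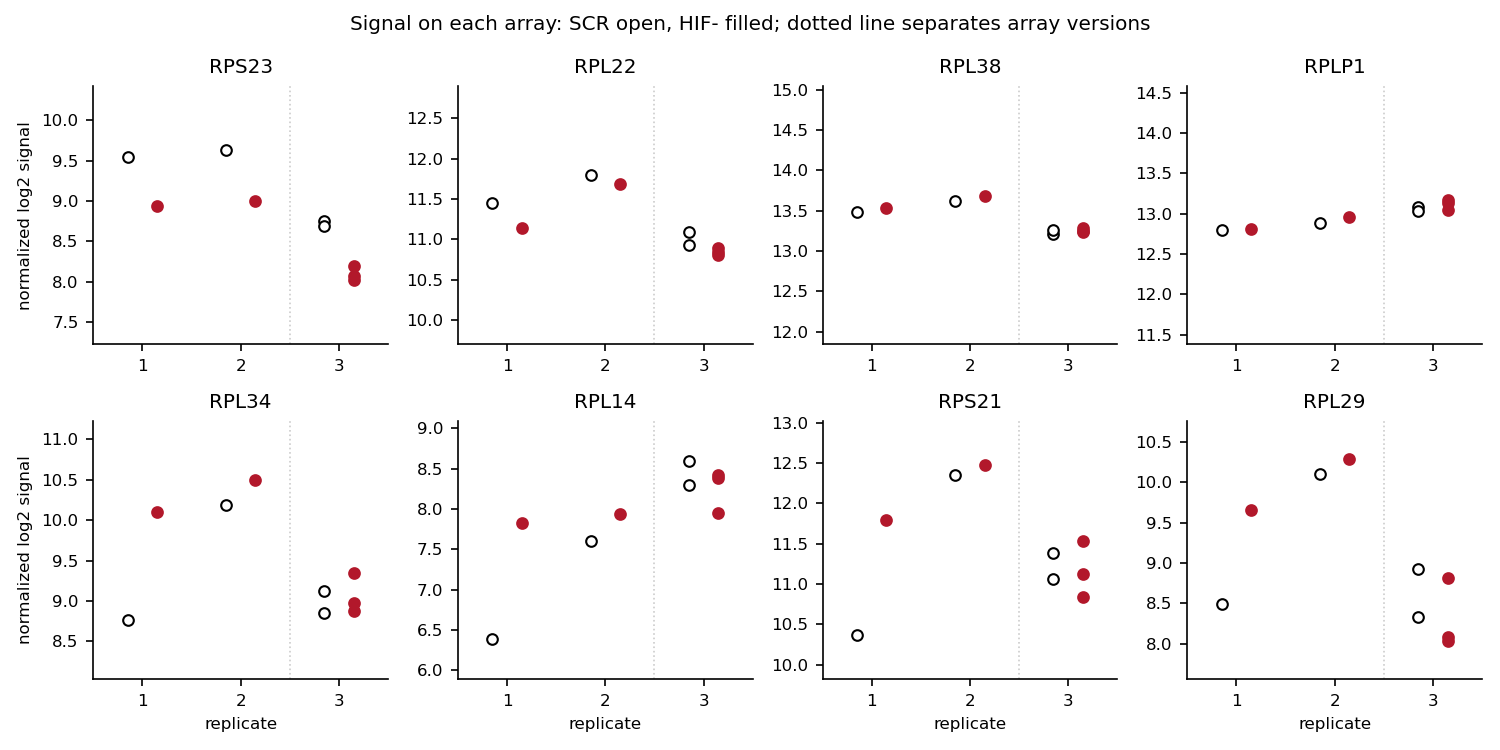
Normalized log2 signal (vertical axis) of 8 ribosomal protein genes on each of the 9 arrays by replicate, SCR as open and HIF- as filled circles, with every panel spanning the same range of log2 units. RPS23 is lower in HIF- cells in each replicate, the brightest RPL38 and RPLP1 probes stay level, and RPL34, RPL14, RPS21 and RPL29 have their widest gap in replicate 1.

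The 60S proteins line the peptide exit tunnel and surround the site of peptide bond formation. RPL34 had the highest mean of the family. It read 8.77 in SCR 1 and 10.10 in HIF- 1, 10.19 in SCR 2 and 10.49 in HIF- 2, and 9.12 and 8.85 on the SCR against 8.88, 9.35 and 8.97 on the HIF- arrays of replicate 3. HIF- was higher in replicates 1 and 2, and the groups overlapped in replicate 3.

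The differences of RPL34 were 1.33, 0.30 and 0.08, with a mean of 0.57 (SE 0.24, unadjusted p = 0.044, limma adjusted p = 0.651). Its second probe gave 0.55, -0.02 and -0.11, a mean of 0.14. The call at the unadjusted threshold thus rests on 1 of 2 probes.

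RPL14, a 60S surface protein, had the widest range. Its signal was 6.39 in SCR 1 and 7.83 in HIF- 1, 7.61 in SCR 2 and 7.93 in HIF- 2, and 8.29 and 8.60 on the SCR against 7.95, 8.41 and 8.38 on the HIF- arrays of replicate 3. SCR 1 was the lowest array by more than 1 log2 unit, and the direction turned in replicate 3. Its differences were 1.44, 0.33 and -0.20 (mean 0.52, limma adjusted p = 0.698), and its second probe gave 0.78, 0.17 and 0.12.

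RPL29, a small 60S protein, ranged in the same way with 1.16, 0.19 and -0.32. RPL36 had differences of 1.08, 0.09 and 0.10, and RPL13, another 60S protein, had 0.81, 0.27 and 0.06. Their second probes gave higher values throughout, with 1.48, 0.36 and 0.27 for RPL36 and 1.14, 0.57 and 0.09 for RPL13. RPL23, which binds MDM2 as well as the 60S core, had 0.54, 0.25 and 0.08. RPL36, RPL13 and RPL23 were above 0 in all 3 replicates, with limma adjusted p of 0.684, 0.662 and 0.671.

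At the lower end, RPL22, a 60S protein that is not needed for translation itself in mice, was below 0 in all 3 replicates with -0.31, -0.10 and -0.17. It read 11.45 in SCR 1 and 11.15 in HIF- 1, 11.79 and 11.69 in replicate 2, and 10.93 and 11.10 on the SCR against 10.85, 10.81 and 10.89 on the HIF- arrays of replicate 3. HIF- lay below SCR on the same chip in each replicate without overlap, and the mean of -0.19 had a limma adjusted p of 0.703.

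RPL41, a very short 60S peptide, differed by -0.30, -0.13 and -0.08, while its second, dimmer probe gave 0.91, -0.33 and -0.29. RPL32 was below 0 in each replicate with -0.07, -0.31 and -0.05, on a dim probe with a mean log2 signal of 6.31. The brightest RPL32 probe held only by HumanHT-12 differed by -0.02 in replicate 3. RPL37 had differences of 0.23, -0.51 and -0.12, on a probe detected on 2 of 9 arrays.

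RPL38, a 60S protein known in mice for a role in Hox mRNA translation, had a narrow range on its brightest probe. The differences there were 0.05, 0.05 and 0.02, on arrays between 13.21 and 13.68, and the second, dimmer probe gave 0.51, -0.12 and 0.01. RPL5 and RPL11, which travel with 5S ribosomal RNA and bind MDM2, had differences of 0.15, 0.02 and -0.03 and of -0.05, 0.01 and 0.08. Their means of 0.05 and 0.01 carried limma adjusted p of 0.919 and 0.981.

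The stalk proteins recruit translation factors to the ribosome. RPLP1 differed by 0.00, 0.07 and 0.05 and RPLP2 by 0.06, -0.08 and -0.05. On these brightest probes RPLP1 had the third narrowest range of the family after RPS23 and RPL38, while its dimmer probe gave 0.83, 0.14 and 0.11.

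The paralogs were set beside their core partners by difference, not by level, since probes differ in brightness. RPL26L1 had 0.76, 0.08 and -0.06 and RPL26 had 0.71, -0.15 and 0.01. RPL36AL had 0.55, -0.09 and -0.17 and RPL36A had 1.08, -0.07 and -0.35. All 4 genes had their highest value in replicate 1.

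RPL7L1, which acts in 60S assembly, had 0.22, -0.09 and -0.03 beside 0.46, -0.03 and -0.16 for RPL7. RPL39L, known from the testis, was detected on 2 arrays and had 0.16, 0.22 and -0.20, beside 0.48, -0.01 and 0.01 for RPL39. RPL39L passed the filter through SCR 3 alone, which read 4.43 and 5.03 on its 2 arrays. The -0.20 in replicate 3 thus rests on the value that let it pass. RPL10L, another testis paralog, was detected on 4 arrays and had 0.40, 0.29 and -0.02, and its partner RPL10 did not pass the filter. Close relatives and the many processed pseudogenes of this family can share a probe's target, which was not tested here.

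By subunit, the median difference in replicate 1 was 0.17 for the 40S, 0.42 for the 60S, 0.03 for the stalk and 0.40 for the paralogs. In replicates 2 and 3 the medians were -0.02 and 0.00 for the 40S and 0.03 and -0.03 for the 60S. Across the 71 genes, Spearman's rho between the differences of replicates 1 and 2 was 0.23, between 1 and 3 it was 0.01 and between 2 and 3 it was 0.18, against 0.20, 0.06 and 0.19 across all features. These are correlations across genes that share arrays, given as a description.

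The next step was to see which sample moved in replicate 1. SCR 1 lay below SCR 2 for 53 of 71 genes, with a median of -0.32 against 0.01 over all features. HIF- 1 lay below HIF- 2 for 36 of 71 genes, with a median of -0.01 against -0.01. Across the 71 genes, the difference in replicate 1 had a correlation of -0.74 (Spearman's rho -0.66) with SCR 1 minus SCR 2 and of -0.02 (rho 0.06) with HIF- 1 minus HIF- 2. Each of these pairs shares a sample, which alone gives some correlation, of opposite sign on the 2 sides, and over all features the values were -0.64 and -0.14. The correlations are therefore a description and do not place the difference in either sample.

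HIF- 1 against SCR 2, from another chip of the same version, had a median of 0.03 over the genes. HIF- 1 and HIF- 2 thus had medians close to SCR 2, and SCR 1 had a lower one. Single genes spread widely around these medians. The SD was 0.54 for SCR 1 minus SCR 2, 0.41 for HIF- 1 minus HIF- 2 and 0.37 for HIF- 1 minus SCR 2. Over all features it was 0.61, 0.48 and 0.47. The medians therefore do not show that SCR 1 alone moved. The deposited signals of replicate 1 were also the brightest, with 55.6% of probes detected in SCR 1 and 54.9% in HIF- 1, against 46.7% and 46.1% in replicate 2. The part of these array features in the replicate 1 difference was not tested.

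**Figure D3:**
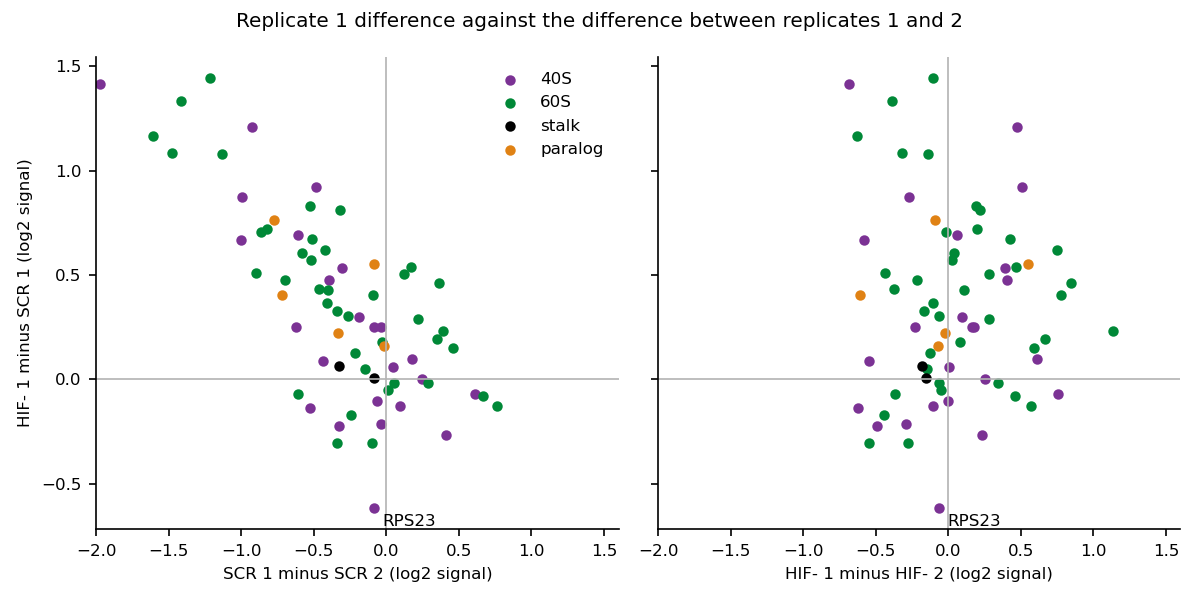
Difference between HIF- 1 and SCR 1 (vertical axis, log2 signal) against SCR 1 minus SCR 2 (left) and HIF- 1 minus HIF- 2 (right), 1 point per ribosomal protein gene, coloured by subunit. The points fall along a descending line on the left (r = -0.74) and form no line on the right (r = -0.02), where all features gave -0.64 and -0.14, and RPS23 lies at the bottom near 0 on both horizontal axes.

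The replicate 1 difference also moved with the brightness of the probe. Of the 71 genes, 51 to 57 lay within the top 5% of an array's signals. For the 16 genes with a mean log2 signal over 13 the median replicate 1 difference was -0.01, for the 24 between 12 and 13 it was 0.29, for the 15 between 10 and 12 it was 0.55, for the 10 between 8 and 10 it was 0.54, and for the 6 under 8 it was 0.32. Other features in these bands had medians between -0.07 and -0.01 in replicate 1.

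The 17 genes with several probes that passed the filter showed the same within a gene. In replicate 1 the median difference was 0.30 on the brightest and 0.82 on the dimmest probe, and the dimmest probe gave the higher value in 13 of 17 genes. Over 1877 other genes with several probes the medians were -0.03 and -0.02, and the dimmest probe was higher in 50.1%. In replicates 2 and 3 the brightest probes of the 17 genes had medians of 0.03 and 0.02, and the dimmest of 0.08 and 0.03.

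RPS29, a zinc-binding 40S protein, had a brightest probe at -0.14 and a dimmest at 0.96 in replicate 1, and RPLP1 had 0.00 and 0.83. RPL14, RPL34, RPS15 and RPL3 were the 4 genes that ran the other way. The mean difference had the same sign on every probe in 11 of the 17 genes.

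**Figure D4:**
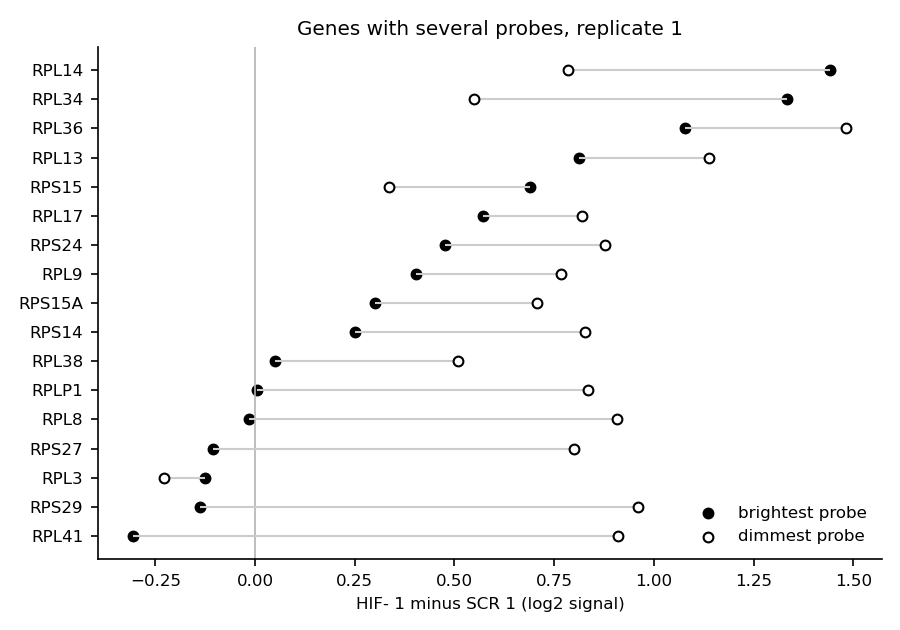
Difference between HIF- 1 and SCR 1 (horizontal axis, log2 signal) of the brightest (filled) and the dimmest (open) probe of the 17 ribosomal protein genes with several probes, ordered by the brightest. The open circles lie to the right in 13 genes, with a median of 0.82 against 0.30.

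Technical arrays gave the finest scale. Over the 3 HIF- arrays of replicate 3 the median SD of a ribosomal protein gene was 0.080, against 0.136 over all features. Over the 2 SCR arrays it was 0.076 against 0.108. These sets were not matched for brightness: 6 of the 71 genes and 8080 other features had a mean log2 signal under 8. The 6 pairs of a HIF- and a SCR array had medians between -0.06 and 0.04, with 22 to 47 of 71 genes above 0. Over all features the medians of these pairs lay between -0.01 and 0.01. RPS23 was below 0 in all 6 of these pairs.

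Other genes of the pathway were set beside the family. The lists were chosen with earlier results of these data known, and 0 members of any of them passed the limma test in either direction. The mitochondrial ribosomal proteins, which form the separate ribosome of the mitochondrion, had a median of 0.15 over 76 genes, with 0.54, 0.05 and -0.06 in replicates 1 to 3. The subunits of oxidative phosphorylation had 0.13 over 67 genes, with 0.55, 0.01 and -0.16. In both lists SCR 1 lay below SCR 2, with medians of -0.46 and -0.67, as in the cytosolic family.

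The translation factors whose mRNAs also carry a TOP motif had a median below 0 in replicate 1, where that of the family was 0.30. Their overall median over 13 genes was -0.02, with -0.11, -0.02 and 0.01 in replicates 1 to 3. EIF4B, a helper of the cap-bound helicase, had the smallest p (-0.22, limma adjusted p = 0.703). The 2 sets were not matched for brightness, and the 16 ribosomal protein genes with a log2 signal over 13 had a replicate 1 median of -0.01. Other TOP transcripts, 6 measured, had a median of -0.10. FAU, whose product carries the 40S protein eS30 and lies outside the symbol rule, differed by 0.99, -0.01 and 0.03.

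Ribosome assembly factors (27 genes) had a median of 0.06 and chaperones and importins of ribosomal proteins (11 genes) of -0.01. NOB1, the nuclease that finishes 18S ribosomal RNA, had differences of 0.29, 0.54 and 0.25 (mean 0.36, limma adjusted p = 0.569). XPO1, the export receptor of both subunits, had -0.62, -0.25 and -0.02.

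Among 19 regulators of ribosomal protein synthesis the median was -0.04. EIF4EBP1, an mTOR target that blocks the cap-binding protein EIF4E, had 0.74, 0.51 and 0.82, a mean of 0.69 with an SE of 0.13 and a limma adjusted p of 0.149. In the stress and p53 list (8 genes, median 0.14), GDF15, a secreted stress cytokine, had 1.03, 0.52 and 1.66 (limma adjusted p = 0.17) and CDKN1A, the p53 target p21, had 0.47, 0.45 and 0.52 (limma adjusted p = 0.335). These 3 genes were named for the smallest p in their lists, a choice that favours agreeing signs. All were above 0 in 3 of 3 replicates, as were 14.5% of all features, and none passed the test. The ribosome quality control list (8 genes) had a median of 0.04.

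**Figure D5:**
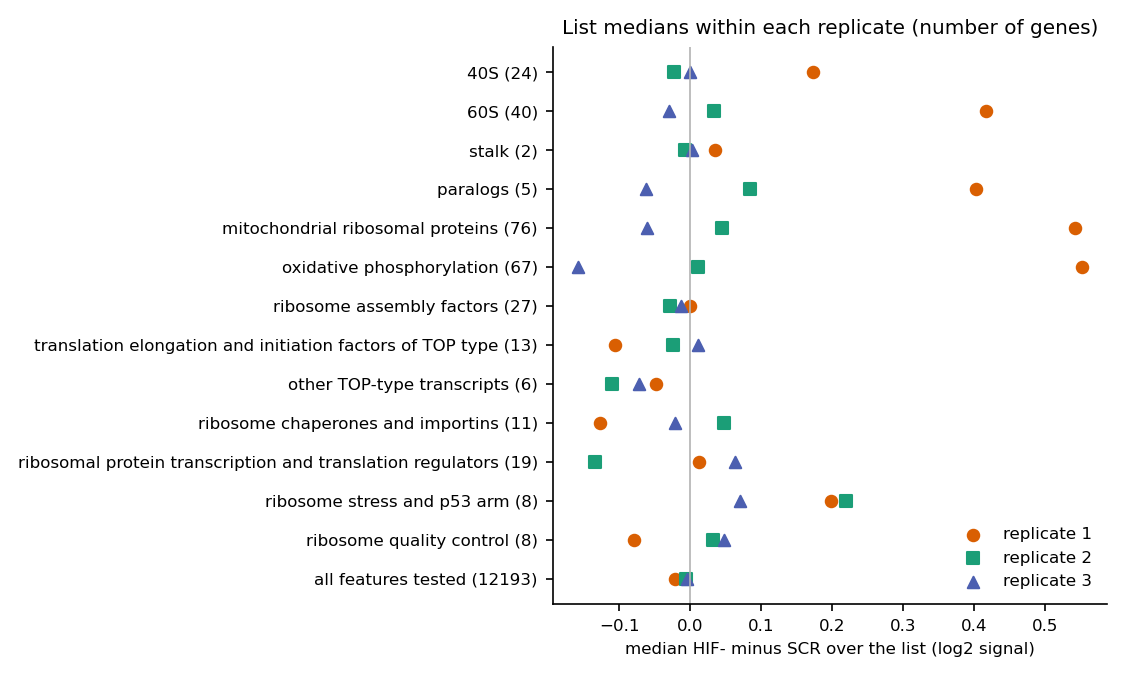
Median difference between HIF- and SCR cells (horizontal axis, log2 signal) in each replicate for the ribosomal protein groups, the related lists and all features, with the number of genes in brackets. The 60S group (0.42), the mitochondrial ribosomal proteins (0.54) and oxidative phosphorylation (0.55) lie far to the right in replicate 1 and near 0 in replicate 2, while the translation factors of TOP type stay within 0.11 of 0 in every replicate.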

How the data were processed

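The authors extracted total RNA, made biotin-labelled cRNA and hybridized it to Illumina HumanRef-8 (replicates 1 and 2) and HumanHT-12 (replicate 3) BeadChips. The tables they deposited as non-normalized held log2 signals, each with its detection p-value, and their normalized values were used only as an alternative. The background correction behind the deposited log2 signals is not given in the sources used here.

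The deposited signals were raised back to linear values, background-corrected (limma nec with detection p-values, offset 16), quantile normalized within each array version and transformed to log2. Quantile normalization gives all arrays of a version the same distribution. The 2 SCR and 3 HIF- technical arrays of replicate 3 were averaged, and 24525 common probes were joined. Probes at or below the array median in all 6 samples were dropped, which left 14683. Probes were named through the platform annotation with symbols updated through RefSeq, which named 91.0% of common probes, and 16 probes had differing symbols between versions. The brightest probe per gene gave 12193 features (11071 genes and 1122 unnamed probes). A probe was called detected at a detection p below 0.01.

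The group comparison used limma 3.58.1 (lmFit, eBayes) in R 4.3.3, with the replicate as a block, Benjamini-Hochberg adjustment over all features and an adjusted p threshold of 0.05, 2-sided. The residual degrees of freedom were 2 and the prior added 5.26. Both groups of a replicate share a chip, and their deviations from the group means correlated at 0.62, 0.80 and 0.85, which the shared array version alone can bring about. The script was tested on simulated data.

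Genes were named by a rule: those past the test, the 6 highest and 6 lowest means, the 4 smallest p in each direction with the same sign in all replicates, the 3 widest and narrowest ranges, the stalk, 5S and selected 40S proteins, paralogs with partners, and up to 2 genes per related list. RPS29, RPS15, RPL3 and the genes of probes found only on HumanHT-12 were named outside it, after their values were seen. Members, lists and rule were chosen with earlier results of these data known. Alternatives were no background correction, normexp, scaling, joint normalization, the authors' values, 2 other filters, mean over probes and first technical arrays. Others were the array version in place of the replicate block, a trend in eBayes, other thresholds, without paralogs and without each replicate. A rebuilt form of the methods' rank rule (z-values over a running window of 501 features, the top 10% everywhere and 1 sign) was added after seeing the data. Some genes of the family are not reported here.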

Additional observations from a re-analysis of the deposited data

Results flagged for a closer look

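Probes found only on the HumanHT-12 version entered no comparison above, since replicates 1 and 2 do not hold them. Of 30 such probes of 26 ribosomal protein genes, 25 were detected on all 5 arrays of replicate 3, and on 2 of these every HIF- array was above both SCR arrays, against 9.46% of all such probes detected on the 5 arrays. The RPL12 probe was 0.20 higher in HIF- arrays and another RPLP1 probe, beside its 2 common ones, was 0.24 higher. Every HIF- array was below both SCR arrays on 3 of the 25 (RPS26, RPL9 and RPL6), against 13.1%, so that both counts were close to those of all such probes. The arrays are technical replicates of 1 sample per group, so that there is no test.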

How the results depend on the processing

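The counts of ribosomal protein genes higher and lower stayed 0 under every alternative run at an adjusted p below 0.05, with the threshold at 0.1 in the reported fit, without paralogs, and by the rebuilt rank rule, where RPS23 missed the limit in replicate 1 alone (z -1.68 against 1.74). At an unadjusted p below 0.05 they were 1 and 1 in the reported fit. Under the alternatives the higher count at that threshold was 4 with normexp, 3 with joint normalization and with the authors' values, 0 without the block, and 0, 3 and 6 without replicates 1, 2 and 3, and the lower count was 1, or 2 with no filter. The median stayed between 0.07 (the authors' values) and 0.12 (mean over probes) with all replicates, and ran from 0.01 to 0.15 when a replicate was left out, lowest without replicate 1. The fit without the replicate block kept a term for the array version. There the median was 0.09, 0 genes were higher and 0 lower, and calls over all features were 1 higher and 1 lower in place of 9 and 5.

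Of the values of named genes under the alternatives, 414 kept their sign and 16 turned. With the first technical arrays only, RPLP2 was 0.0175, RPL11 -0.0269 and RPL36AL -0.0489. For genes that turned without replicate 1, leaving out a replicate gave -0.0626 to 0.677 for RPL29, -0.0065 to 0.0859 for RPL5, -0.0621 to 0.0954 for RPL7L1, -0.126 to 0.234 for RPL36AL, -0.0949 to 0.218 for RPL7, -0.211 to 0.505 for RPL36A and -0.0678 to 0.357 for RPL26. For those that turned without replicate 2 it gave -0.316 to 0.0571 for RPL37, -0.0659 to 0.00785 for RPLP2, -0.184 to 0.0301 for RPS6 and -0.0174 to 0.19 for RPL39L. For those that turned without replicate 3 it gave -0.0219 to 0.0451 for RPL11 and -0.00376 to 0.052 for RPS3. RPL10L, RPL37 and RPL39L had no value under 1 or 2 alternatives.

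The small number of replicates, dim probes near the median signal and bright probes near the top of the range limit what these arrays resolve. A left-out replicate leaves 1 residual degree of freedom, so that its p-values rest mostly on the prior.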

Other observations

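Of the probes held only by HumanHT-12 and detected on all 5 arrays, 3 read lower on every HIF- array. The difference was -0.37 for RPS26, -0.15 for RPL9 and -0.07 for RPL6. Another such RPL6 probe differed by -0.03, with overlap between the groups. An RPL39L probe detected on 0 arrays also read lower on every HIF- array, with -0.24. RPS18, a 40S head protein without a common probe, read 12.04 and 12.08 on the SCR and 12.21, 12.02 and 12.03 on the HIF- arrays. The groups overlapped. RPL22L1, the paralog of RPL22, was detected on 0 of the 5 arrays, and a second RPL10 probe was likewise detected on none.

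Of 3 HumanHT-12 probes for RPL32, the brightest read between 13.02 and 13.13 on the 5 arrays, with a difference of -0.02. The other 2 gave -0.32 and -0.09.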
